A study of Mus musculus with 12 samples.

Results

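The comparison described here is that of the striatum of wild-type C57BL/6 mice at 18 and at 3 months of age, that is, the ageing of the striatum without a mutation. It takes in the 6 arrays that the labels give as wild-type striatum, of 12 in the whole series, and every probe set of those arrays other than the control probe sets of the manufacturer. The 18-month group held 3 mice, wt_18m_9 (female, 604 days), wt_18m_12 (male, 596 days) and wt_18m_17 (female, 596 days). The 3-month group held 3 mice, wt_3m_436 (male, 103 days), wt_3m_438 (female, 103 days) and wt_3m_467 (male, 100 days); the last number of each name is that of the animal. The other 6 arrays came from Q92 mice of 3 and 18 months, 3 per age. These mice carry a huntingtin knock-in allele with an expanded CAG repeat and serve here only as a second set of young and old mice. At 18 months they were Q92_18m_11 (male, 596 days), Q92_18m_25 (female, 567 days) and Q92_18m_66 (female, 574 days). At 3 months they were Q92_3m_439 and Q92_3m_440 (females, 103 days) and Q92_3m_466 (male, 100 days). Total RNA of each striatum was labelled with biotin and hybridised to 1 Affymetrix Mouse Genome 430 2.0 array per mouse. Young wild-type mice were thus mostly male and old wild-type mice mostly female, and age and sex are not balanced in the wild type.

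The striatum is the input nucleus of the basal ganglia. Most of its neurons are GABAergic projection neurons, which receive glutamate from cortex and thalamus and dopamine from the midbrain. Around them lie astrocytes, oligodendrocytes in the fibre bundles that cross the nucleus, and microglia, the resident macrophages of the brain. In ageing rodent brain, glial and immune genes are the ones most often described as higher: Gfap, the intermediate filament protein of astrocytes, complement factors, antigen presentation genes and genes induced by interferon.

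The dissection held striatum in every array. Of 30 measured genes of striatal projection neuron identity, 28 lay above the array median on all 12 arrays, as did 8 of 9 direct pathway and 4 of 5 indirect pathway genes, whereas only 2 of 13 choroid plexus genes did. Of cortical excitatory neuron genes 9 of 14 did, and of thalamic and pallidal genes 6 of 12, so this measure does not show that neighbouring tissue was absent. Sex as read from Xist and Y-linked transcripts matched the label in 12 of 12 arrays, no arrays were identical, and pairwise correlations ran from 0.983 to 0.995. Among the wild-type arrays, mouse wt_18m_12 stood apart by its choroid plexus genes, which are described below. Relative to the mean of the wild-type arrays, the mean level of these genes was 2.14 in this mouse. In the young mouse Q92_3m_439 it was 2.35, so wt_18m_12 was not the only array with a high level. The 3' minus 5' signal of the Gapdh control probe sets, a measure of RNA integrity, was -0.036, -0.074 and -0.067 in the 3-month mice (wt_3m_436, wt_3m_438, wt_3m_467) and -0.030, 0.0029 and -0.012 in the 18-month mice (wt_18m_9, wt_18m_12, wt_18m_17). All old arrays thus lay slightly above all young ones in this measure, whereas the same measure of beta-actin overlapped, at 0.83 to 0.88 and 0.70 to 0.99. A control probe set for 18S ribosomal RNA gave 6.87, 7.62 and 6.651 at 3 months and 6.53, 6.649 and 6.64 at 18 months, with all old arrays below all young ones. The part of these measures in the age differences was not tested.

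At 18 months, 23 of 45037 probe sets (0.0511%) were higher than at 3 months and 0 (0%) were lower at an adjusted p under 0.05 in limma (Benjamini-Hochberg over all probe sets). At an unadjusted p under 0.05 the counts were 2371 higher (5.26%) and 2386 lower (5.3%), so this larger set was nearly even in direction. Taking the brightest probe set of each gene, 13 of 18193 genes were called higher (0.0715%) and 0 lower. Larger differences also lay mostly upward: 360 genes were at least 1.41-fold higher and 63 at least as much lower, 73 were at least 2-fold higher and 4 at least 2-fold lower, and 7 were at least 4-fold higher against 1 lower. The count of genes at least 2-fold lower was 17 without mouse wt_3m_467, 7 without either wt_18m_12 or wt_3m_438, and 32 without both wt_3m_467 and wt_18m_12, when 79 were at least 2-fold higher. The median difference over all genes was -0.01 on the log2 scale, the scale of all signals and differences given here.

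**Figure D1:**
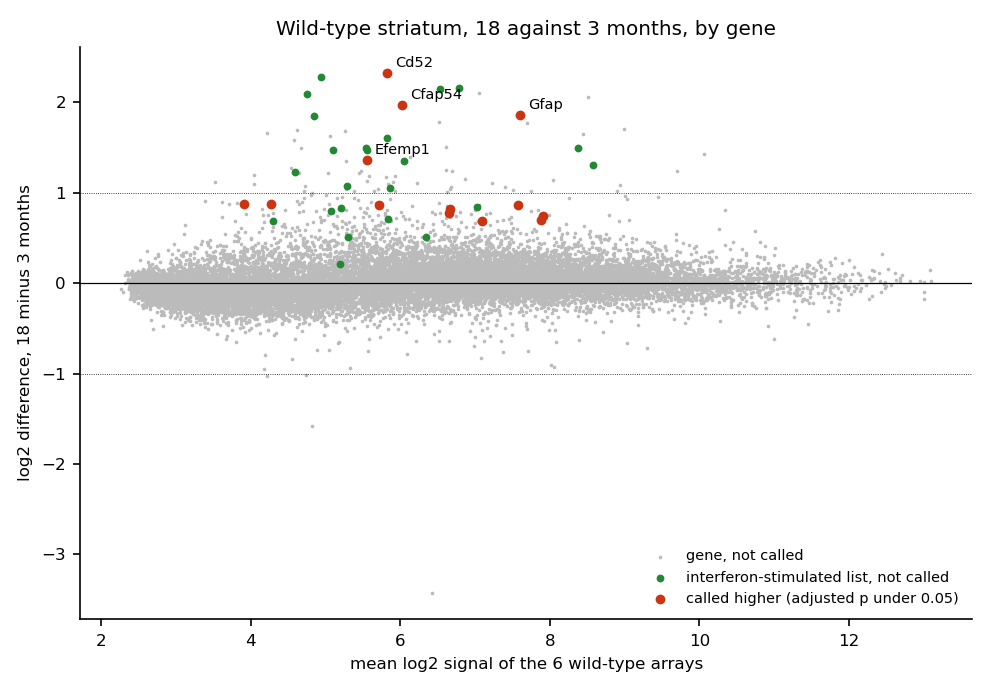
Each point is 1 gene (18193 genes, brightest probe set), plotted by its mean log2 signal over the 6 wild-type arrays and by its log2 difference, 18 minus 3 months; red points are the 13 genes called higher, green points the interferon-stimulated list, and dotted lines mark 2-fold. The cloud is centred at 0, and 73 genes lie above the upper line against 4 below the lower one.

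The genes called higher belonged to microglia, astrocytes, oligodendrocytes and several other functions. In each sentence of values below, the 3-month mice come in the order wt_3m_436, wt_3m_438, wt_3m_467 and the 18-month mice in the order wt_18m_9, wt_18m_12, wt_18m_17. Cd52, which encodes a small GPI-anchored glycoprotein of leukocytes and microglia, gave the largest upward difference of any gene. Its signal was 4.45, 4.84 and 4.69 at 3 months and 6.40, 7.05 and 7.51 at 18 months. All old mice lay well above all young mice, and the difference was 2.33 ± 0.29 (SE, n = 3 per age; 5.015-fold, adjusted p = 0.0242).

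Gfap was represented by 3 probe sets, all higher at 18 months without overlap and 2 of them called. On the brightest, the signal was 7.20, 6.40 and 6.42 at 3 months and 8.66, 8.40 and 8.54 at 18 months. The old mice were close together while the young mouse wt_3m_436 lay above its 2 age mates, and the difference was 1.86 ± 0.26 (SE; 3.64-fold, adjusted p = 0.0304). On the other called probe set it was 2.29 ± 0.27 (4.90-fold, adjusted p = 0.0223).

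Aspa, the oligodendrocyte enzyme that cleaves N-acetylaspartate, measured 7.41, 7.68 and 7.51 at 3 months. At 18 months it measured 8.25, 8.21 and 8.22, almost the same in the 3 old mice. It rose by 0.70 ± 0.11 (SE; adjusted p = 0.0485). Nfe2l2, the transcription factor NRF2 that switches on antioxidant genes, measured 6.33, 6.35 and 6.12 at 3 months and 6.88, 7.16 and 7.10 at 18 months. It rose by 0.78 ± 0.10 (SE; adjusted p = 0.0279) on this probe set, without overlap between ages. Its other probe set, with means of 3.00 and 2.97, lay well below the wild-type array medians of 4.96 to 4.99 and differed by -0.03.

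Cfap54, which encodes a protein of motile cilia, measured 5.35, 4.62 and 5.14 at 3 months and 7.22, 7.36 and 6.45 at 18 months. It rose by 1.97 ± 0.24 (SE; 3.93-fold, adjusted p = 0.0223), with mouse wt_18m_17 the lowest of the old mice. The other 12 measured ependymal cilia genes did not share this size: their differences ran from -0.39 for Ccdc153 to 0.20 for Foxj1, and none was called. A further Cfap54 probe set, with means of 2.91 and 3.01, also lay well below the array medians and differed by 0.10. Efemp1, which encodes the extracellular matrix protein fibulin-3, measured 4.50, 5.46 and 4.65 at 3 months and 6.19, 6.22 and 6.29 at 18 months. It rose by 1.36 ± 0.19 (SE; 2.57-fold, adjusted p = 0.0304), and the young female wt_3m_438 lay nearest to the old mice.

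The remaining called genes differed by 0.68 to 0.88, and the arrays of both ages stayed apart for each. Elk3, an ETS-family transcription factor, measured 3.73 to 3.97 at 3 months and 4.54 to 4.86 at 18 months, a rise of 0.88 ± 0.10 (SE; adjusted p = 0.0223). Only 1 of its 4 probe sets had a higher mean at 18 months, so this call rests on 1 probe set. That probe set lay below the array median in every wild-type mouse, as did the called probe set of Irak3. Irak3, an inhibitory kinase of Toll-like receptor signalling, rose by 0.88 ± 0.12 and Lpcat2, an enzyme of platelet-activating factor synthesis, by 0.82 ± 0.12 (SE; both adjusted p = 0.0304). Itgb5, the integrin beta chain that pairs with alpha v, rose by 0.75 ± 0.10 (adjusted p = 0.0304), and its 4 probe sets were all higher without overlap, 2 of them called. Msn encodes moesin, which links the plasma membrane to actin, and rose by 0.68 ± 0.10 (adjusted p = 0.0485), with both of its probe sets apart. Ctnnal1, an alpha-catenin relative, and Magt1, a magnesium transport and glycosylation protein, each rose by 0.87 (SE 0.11 and 0.12, adjusted p = 0.0279 and 0.0304). The other probe sets of Irak3, Lpcat2 and Ctnnal1 differed by 0.23, 0.08 and 0.30, with overlap between ages, and that of Magt1 by 0.48 without overlap.

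Within each sex the differences of all 13 genes were positive, with 1 old male against 2 young males and 2 old females against 1 young female. Because every old mouse lay above every young mouse for these genes, this sign was fixed and is no separate test of sex. The old male lay 2.48 above the young males for Cd52, 1.59 for Gfap and 0.75 for Aspa. The old females lay 2.11, 2.20 and 0.56 above the young female for the same genes. With sex as a covariate all 13 differences stayed positive, at 0.64 to 2.29, but 0 probe sets were called. The adjusted p-values of the 13 genes were then 0.0643 to 0.108. Some sizes were not steady in other runs. With the mean of the probe sets of a gene, 6 of the 13 lost their call and Elk3 fell from 0.88 to 0.19. Over all alternative runs the smallest differences of Cfap54, Nfe2l2 and Lpcat2 were 1.04, 0.38 and 0.45. Leaving out 1 mouse gave 0 to 23 probe sets called higher: 0 without mouse wt_3m_436, 2 without mouse wt_3m_467, 2 without mouse wt_18m_12, 5 without mouse wt_3m_438, 10 without mouse wt_18m_17 and 23 without mouse wt_18m_9.

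**Figure D2:**
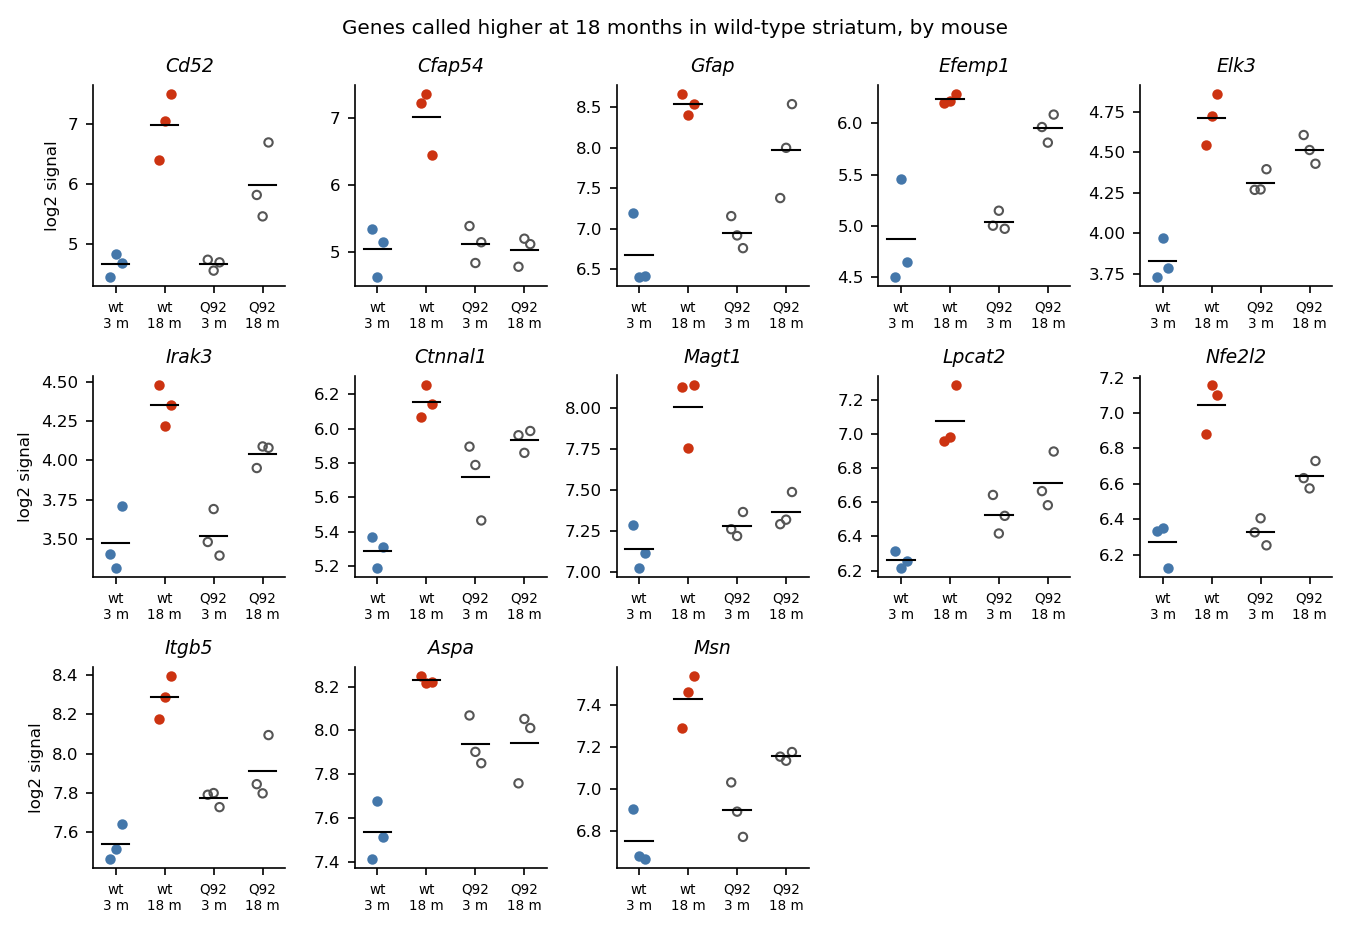
Log2 signal of each of the 13 genes called higher at 18 months in wild type, 1 point per mouse and a bar at the mean of 3, for wild type (blue, 3 months; red, 18 months) and Q92 mice (open circles); the vertical scale differs between panels. In every panel the red points lie above the blue ones, and for Cfap54 and Aspa the Q92 mice of both ages overlap.

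Called probe sets that were not the brightest of their gene lay outside the rule for naming genes and are named after their values were seen. Fcgr2b, the inhibitory Fc gamma receptor, rose by 1.35 ± 0.21 (SE; adjusted p = 0.0485) on 1 of 5 probe sets. Another 2 Fcgr2b probe sets were higher without overlap, by 1.01 and 0.41, while its brightest differed by -0.09. Parp3 rose by 1.00, Adamtsl1 by 0.93, Wdfy1 by 0.76 and Suclg2 by 0.55, each on 1 probe set. For Wdfy1 the 5 probe sets ran from -0.42 to 0.76. A probe set that the annotation pairs with the complement genes C4a and C4b rose by 2.29 ± 0.28 (SE, adjusted p = 0.0223), without overlap between ages. It cannot be given to 1 of these genes and enters no gene list. For another 2 called probe sets the annotation gives no gene.

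Just outside the threshold lay Irf8, a transcription factor of the microglial and macrophage lineage, with a difference of 0.78, and Tlr3, the receptor for double-stranded RNA, with 0.73 (both adjusted p = 0.0563). Ctsz, the lysosomal protease cathepsin Z, differed by 0.70 (adjusted p = 0.0563). Lyz2, the lysozyme of macrophages, measured 5.60, 5.70 and 5.59 at 3 months and 7.13, 7.56 and 7.56 at 18 months. Its difference was 1.79 ± 0.29 (SE; adjusted p = 0.0686), larger than that of most genes called. Il33, a cytokine stored in nuclei of oligodendrocytes and astrocytes, differed by 0.96 ± 0.16 (SE; adjusted p = 0.0705).

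No gene was called lower. Some probe sets outside the rule for naming genes came nearest to the threshold. A Ccnd2 probe set that was not the brightest differed by -0.81 (adjusted p = 0.0661). Probe sets paired with several H2ac histone genes and with Cuedc1 and 2210416O15Rik differed by -1.19 and -0.47 (both adjusted p = 0.096). Among genes taken by their brightest probe set, the 5 with the smallest p were Nlrp9b (-0.47), Camp (-0.50), Myh7 (-0.50), Mapre1 (-0.71) and Mir1931 (-3.43), with adjusted p-values of 0.156 to 0.165. Mapre1, which encodes the microtubule end-binding protein EB1, was the brightest of these, at 9.86, 9.52 and 9.58 at 3 months and 8.88, 8.82 and 9.13 at 18 months. The probe set paired with Mir1931 measures long RNA from that locus and not the mature microRNA. It read 8.23, 8.24 and 7.96 at 3 months and 3.61, 3.35 and 7.19 at 18 months, so mice wt_18m_9 and wt_18m_12 were far below mouse wt_18m_17. Of the 4 genes at least 2-fold lower, Eif2s3y lies on the Y chromosome and followed the sex of the mice. Orly was also higher in every male than in every female. It was at 5.16, 3.35 and 5.66 at 3 months and 3.35, 4.22 and 3.53 at 18 months. Its difference was -1.19 in males and 0.09 in females. Rmst, a long non-coding RNA of neural development, was at 6.07, 5.40 and 5.35 at 3 months and 3.43, 3.73 and 4.93 at 18 months.

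Of the 73 genes at least 2-fold higher, 29 belonged to the complement, microglia, MHC or interferon-stimulated lists, which together hold 92 measured genes. Of the 73, 35 were in any of the 40 lists. Genes outside the lists, picked by function after their values were seen and not describing the rest, included the interferon-induced GTPases Gbp6, Gbp7, Irgm1, Irgm2 and Igtp, the leukocyte phosphatase Ptprc, the NADPH oxidase subunit Cybb, and the chemokine Ccl12. Mouse wt_18m_17 was the highest old mouse for 58 of the 73 genes and mouse wt_18m_9 the lowest for 51. Without mouse wt_18m_17 the count was 48, and without mouse wt_18m_9 it was 103. Xist was also among the 73 and, like Eif2s3y, followed sex.

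**Figure D3:**
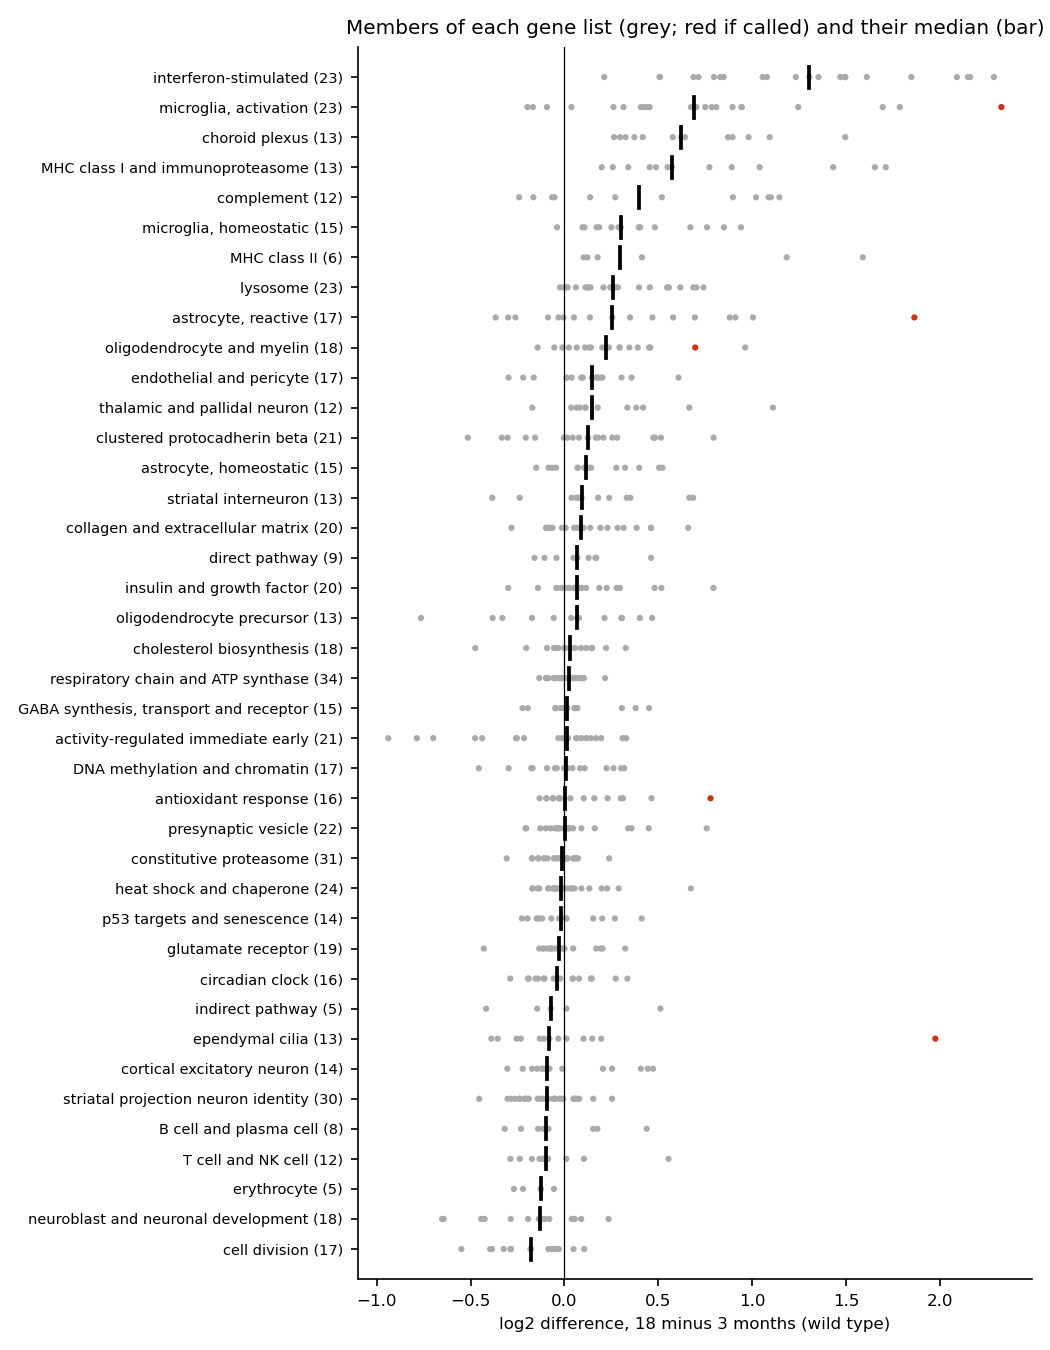
Log2 difference, 18 minus 3 months, of every measured member of 40 gene lists (number measured in parentheses; grey points, red if called) with the median of the list as a bar, ordered by that median. The interferon-stimulated list has the highest median, 1.30, and cell division the lowest, -0.18, and 5 points are red.

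Interferon-stimulated genes formed the list with the largest median difference. These genes are switched on by type I and type II interferons, and many of their products restrict viruses. All 23 measured members had a higher mean at 18 months, and in 16 the arrays of the 2 ages did not overlap, beside 9.76% of all genes that lay apart in this direction. The median difference was 1.30, against -0.01 for all genes, but 0 members were called.

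The old mice differed widely from each other in these genes. Oasl2, of the oligoadenylate synthetase-like family, measured 3.60, 3.81 and 3.97 at 3 months and 4.39, 6.16 and 7.70 at 18 months, a difference of 2.29 ± 0.64 (SE; adjusted p = 0.277). Ifit3, an RNA-binding antiviral effector, measured 5.72, 5.89 and 5.52 at 3 months and 6.76, 7.52 and 9.33 at 18 months, a difference of 2.16 ± 0.55 (SE; adjusted p = 0.236). The young mice were close together in both genes, and the old mice rank wt_18m_9, wt_18m_12, wt_18m_17 from low to high. Ifit1 gave the same order, with 3.88, 3.96 and 3.92 at 3 months and 4.50, 5.33 and 7.48 at 18 months.

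Over the list, the mean level relative to the 6 wild-type arrays was -0.72, -0.63 and -0.55 at 3 months and -0.25, 0.50 and 1.66 at 18 months. Mouse wt_18m_17 exceeded every young mouse in 23 of 23 genes, mouse wt_18m_12 in 21 and mouse wt_18m_9 in 17. Among all genes an old mouse exceeded every young mouse in 24.2% to 28% of them. Without mouse wt_18m_17 the median was 0.80 and 22 of 23 genes kept a higher mean. The smallest difference in the list was that of Eif2ak2, which encodes the RNA-activated kinase PKR, at 0.21.

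Promoters of these genes often carry the interferon-stimulated response element, a short DNA motif. RefSeq promoter windows (assembly GRCm38.p6, 250 bases before to 50 after the annotated start) were available for 18 of the 23 genes. The core of this element, searched for as GAAA, any 2 bases and GAAA on both strands with overlapping matches kept, was found in 12 of them (66.7%), against 524 of 14452 measured genes with a window (3.63%) and 0 of 11 called genes. A match is a run of letters and not a measured binding site. The windows of Ifit3 (chr19:34583279-34583578, plus strand), Ifit1 (chr19:34640639-34640938, plus strand), Ifitm3 (chr7:141010695-141010994, minus strand) and Gbp3 (chr3:142559794-142560093, plus strand) are shown because, of the genes with a match and no overlap between ages, these 4 had the largest differences; they were chosen after their values were seen, and each holds 2 matches. They run 5' to 3' on the strand of the gene, with the matches in capitals.
Ifit3: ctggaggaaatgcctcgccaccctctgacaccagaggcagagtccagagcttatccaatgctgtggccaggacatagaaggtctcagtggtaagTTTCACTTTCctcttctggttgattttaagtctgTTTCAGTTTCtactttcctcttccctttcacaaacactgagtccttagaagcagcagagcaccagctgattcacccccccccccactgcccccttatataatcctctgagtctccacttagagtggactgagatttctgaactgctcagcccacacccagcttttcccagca
Ifit1: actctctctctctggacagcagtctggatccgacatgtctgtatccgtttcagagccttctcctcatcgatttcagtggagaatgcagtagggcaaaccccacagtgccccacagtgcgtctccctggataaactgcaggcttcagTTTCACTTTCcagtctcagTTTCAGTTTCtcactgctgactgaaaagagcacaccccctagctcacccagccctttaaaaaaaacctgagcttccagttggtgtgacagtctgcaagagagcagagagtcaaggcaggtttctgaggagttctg
Ifitm3: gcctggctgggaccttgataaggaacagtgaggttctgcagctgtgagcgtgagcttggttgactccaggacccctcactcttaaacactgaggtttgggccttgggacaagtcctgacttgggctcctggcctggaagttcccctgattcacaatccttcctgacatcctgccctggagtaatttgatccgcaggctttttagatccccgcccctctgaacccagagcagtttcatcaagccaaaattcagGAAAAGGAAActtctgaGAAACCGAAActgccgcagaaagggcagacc
Gbp3: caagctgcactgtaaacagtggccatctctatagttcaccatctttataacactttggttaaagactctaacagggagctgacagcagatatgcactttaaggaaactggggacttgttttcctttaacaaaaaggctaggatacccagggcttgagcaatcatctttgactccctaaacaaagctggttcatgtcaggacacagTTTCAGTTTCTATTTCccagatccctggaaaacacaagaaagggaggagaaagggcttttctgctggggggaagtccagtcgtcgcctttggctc
In Ifit3, Ifit1 and Gbp3 the matches read TTTC, 2 bases and TTTC, the core on the opposite strand. The differences of Ifitm3, a membrane protein that blocks virus entry, and of Gbp3, a guanylate-binding protein, were 1.49 ± 0.47 and 1.47 ± 0.44 (SE), both without overlap between ages.

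Antigen presentation genes showed the same order of the old mice. All 13 measured genes of MHC class I and the immunoproteasome had a higher mean at 18 months, 9 of them without overlap, with a median of 0.57 and 0 called; of all genes 47.3% had a higher mean and 9.76% lay apart above. H2-K1, a class I heavy chain, measured 7.57, 7.62 and 7.66 at 3 months and 8.44, 9.46 and 9.92 at 18 months (difference 1.65 ± 0.31, SE; adjusted p = 0.114). H2-D1 differed by 1.71 ± 0.31 (adjusted p = 0.107); the probe sets of these similar heavy chains may bind each other's transcripts. B2m, the light chain they share, measured 9.35, 9.38 and 9.31 at 3 months and 10.14, 10.76 and 11.43 at 18 months, a difference of 1.43 ± 0.33 (SE; adjusted p = 0.190). Psmb8, an immunoproteasome subunit, differed by 1.04, while the 31 subunits of the constitutive proteasome had a median of -0.01.

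MHC class II, which professional antigen-presenting cells use, was highest in mouse wt_18m_17. H2-Aa measured 3.63, 3.78 and 3.95 at 3 months and 4.63, 4.57 and 6.92 at 18 months, and Cd74, the invariant chain, 5.59, 5.29 and 5.15 and then 5.87, 6.36 and 7.35. The median of the 6 genes was 0.29, 0.12 without mouse wt_18m_17 and 0.46 without mouse wt_18m_12. Markers of lymphocytes had medians below 0: the B cell and plasma cell list had 3 of 8 genes with a higher mean and a median of -0.10, and the T cell and NK cell list 3 of 12 and -0.10. Without mouse wt_3m_467 these medians were 0.02 and -0.04.

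**Figure D4:**
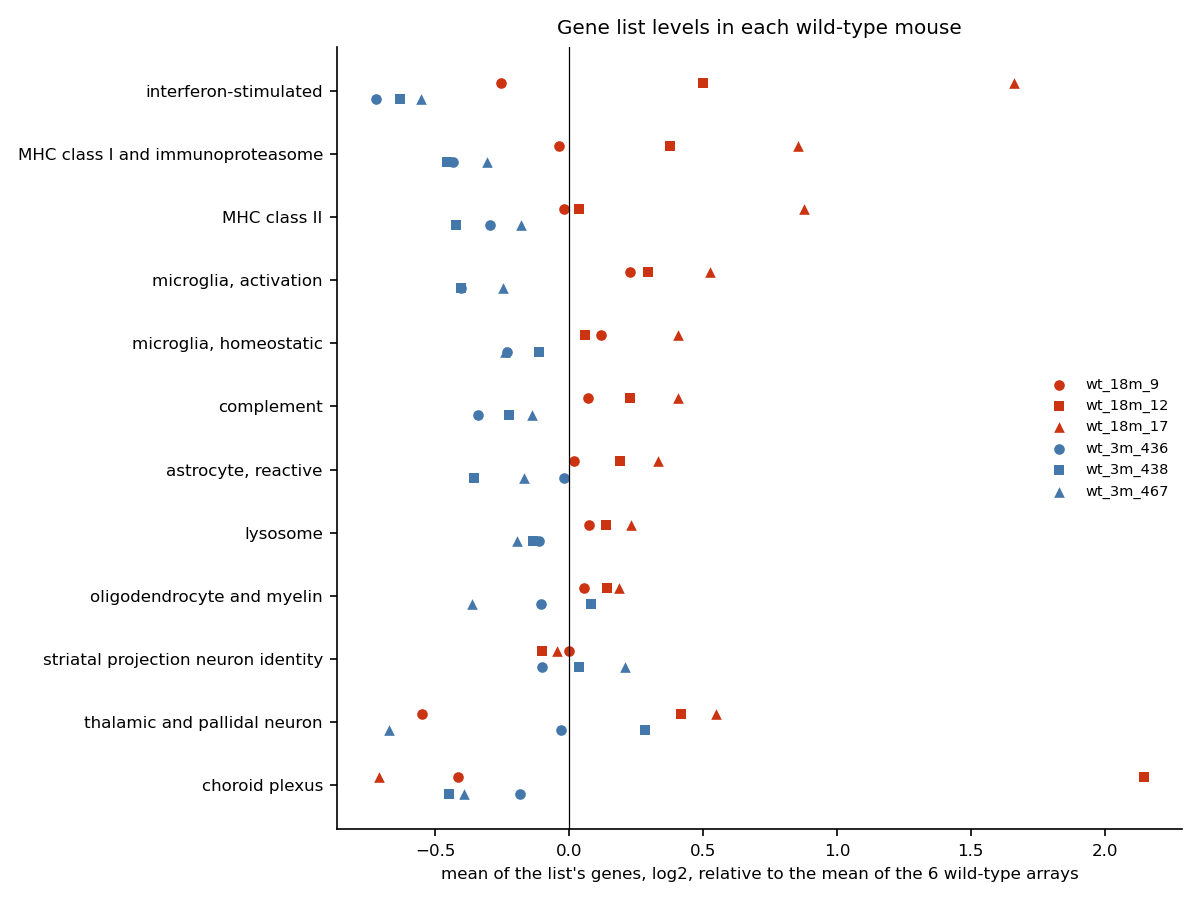
Mean log2 level of 12 gene lists in each wild-type mouse, relative to the mean of the 6 wild-type arrays (red, 18 months; blue, 3 months; 1 symbol per mouse). Mouse wt_18m_17 lies highest and mouse wt_18m_9 lowest of the old mice for the interferon-stimulated and MHC lists, at 1.66 and -0.25 for the first, and mouse wt_18m_12 alone is high for choroid plexus, at 2.14.

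Both microglial lists had mostly higher means. Of all genes, 47.3% had a higher mean and 9.76% lay apart above. Of 23 activation genes 20 had a higher mean at 18 months and 17 did not overlap between ages, with a median of 0.69; Cd52 alone was called. Clec7a, the beta-glucan receptor dectin-1, measured 3.92, 3.31 and 4.10 at 3 months and 5.06, 5.20 and 6.15 at 18 months (difference 1.69 ± 0.40, SE; adjusted p = 0.198). Ctss, a lysosomal protease of microglia, differed by 1.24 ± 0.27 (adjusted p = 0.167) and Cd68, a lysosomal membrane protein of phagocytes, by 0.78 ± 0.15 (adjusted p = 0.139). Lpl, Ccl4 and the brightest Fcgr2b probe set had lower means.

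Homeostatic microglial genes, whose difference from the activation list was not tested, had a median of 0.30. Of these genes 14 of 15 had a higher mean, 9 did not overlap, beside 9.76% of all genes, and 0 were called. Their members were uneven. Tyrobp, the signalling adaptor of TREM2, differed by 0.94 ± 0.22 (SE; adjusted p = 0.199) and Aif1, which encodes IBA1, by 0.85 ± 0.23 (adjusted p = 0.251). The purinergic receptor gene P2ry12 differed by -0.04, the colony-stimulating factor receptor gene Csf1r by 0.10 and the fractalkine receptor gene Cx3cr1 by 0.19, each with overlapping arrays. In RNA of whole striatum, more cells of a type and more RNA per cell cannot be told apart.

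Among the 12 measured genes of the complement list, the largest differences were those of the C1q chains and Itgb2. The called probe set paired with both C4a and C4b, which rose by 2.29, lies outside this list. The C1q chains, which start the classical pathway and are made by microglia in brain, were all higher without overlap. C1qc measured 7.34, 7.43 and 7.64 at 3 months and 8.38, 8.62 and 8.85 at 18 months, a difference of 1.14 ± 0.22 (SE; adjusted p = 0.134). C1qa differed by 1.09 and C1qb by 1.02. Itgb2, the beta chain of the complement receptor CR3, differed by 1.10 ± 0.24 (adjusted p = 0.169) and its partner Itgam by 0.52. The regulators Cd55 and Cd59a differed by -0.05 and -0.24 and the receptor C5ar1 by -0.17, with overlap. The list had 8 of 12 means higher and 6 apart above, beside 47.3% and 9.76% of all genes. Its median was 0.39 and 0 members were called.

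Lysosomal genes, which microglia and other cells share, had 21 of 23 means higher and 12 apart above, beside 47.3% and 9.76% of all genes. The median was 0.26, and 0 of these genes were called. Ctsz gave the smallest p of these. Ctsd, which encodes cathepsin D, measured 9.36, 9.48 and 9.43 at 3 months and 9.81, 10.03 and 10.07 at 18 months (difference 0.55 ± 0.14, SE; adjusted p = 0.236). Psap and Glb1 differed by 0.01 and -0.00, so the enzymes of the list were not uniform.

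Reactive astrocyte genes were led by Gfap, the only member called. Of 17 measured, 11 had a higher mean, 7 lay apart above and 1 (Emp1) below, with a median of 0.26. The shares of all genes were 47.3%, 9.76% and 8.81%. Osmr, the oncostatin M receptor, differed by 0.88 ± 0.22 (SE; adjusted p = 0.236). Serpina3n, a secreted protease inhibitor, measured 7.78, 5.13 and 5.46 at 3 months and 6.51, 6.33 and 8.54 at 18 months, so its 2-fold mean difference lay within the spread of both ages. Lcn2 and Hspb1 differed by 0.14 and -0.09. Homeostatic astrocyte genes had a median of 0.11. Of 15, 3 (20%) lay apart above and 1 (6.67%) below, beside 9.76% and 8.81% of all genes. Fgfr3, a receptor tyrosine kinase of astrocytes, differed by 0.50 ± 0.10 (adjusted p = 0.152) and the water channel gene Aqp4 by 0.52 ± 0.19 (adjusted p = 0.388).

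Oligodendrocyte genes mostly had higher means, by small amounts. Of 18 oligodendrocyte and myelin genes 15 had a higher mean and 4 lay apart above, beside 47.3% and 9.76% of all genes. Aspa was called, and the median was 0.22, or 0.12 without mouse wt_3m_467. The major myelin gene Mbp measured 13.05, 13.20 and 13.03 at 3 months and 13.06, 13.16 and 13.13 at 18 months, a difference of 0.02. Among precursor genes Gpr17, a receptor of cells committed to differentiate, measured 8.09, 7.78 and 7.42 at 3 months and 7.19, 6.88 and 6.92 at 18 months (difference -0.76 ± 0.22, SE; adjusted p = 0.292). Bmp4 differed by -0.38, whereas Olig2, Sox10 and Pdgfra differed by 0.47, 0.40 and 0.31. The precursor list had 8 of 13 means higher, 4 genes apart above and 2 below, beside 47.3%, 9.76% and 8.81% of all genes. Its median was 0.07 (0.04 to 0.13 without 1 mouse), and 0 members were called.

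Proliferation and new-neuron genes lay at the other end of the lists, and none was called. Of 17 cell division genes 15 had a lower mean at 18 months and 5 lay apart below, beside 8.81% of all genes, with a median of -0.18 (-0.11 without mouse wt_3m_436). Mki67, the gene of the proliferation antigen Ki-67, measured 5.21, 4.16 and 4.44 at 3 months and 3.95, 4.21 and 4.01 at 18 months, so the young mouse wt_3m_436 stood above the rest, and the difference was -0.55 ± 0.20 (SE; adjusted p = 0.383). The neuroblast list had a median of -0.13, and 0.02 without mouse wt_3m_436. Sox4, a transcription factor of immature neurons, measured 8.58, 8.13 and 8.52 at 3 months and 7.69, 8.10 and 7.49 at 18 months (difference -0.65 ± 0.16; adjusted p = 0.217). Another Sox4 probe set, not the brightest, differed by -0.83 without overlap (adjusted p = 0.145). Dcx, which encodes doublecortin, differed by -0.64 ± 0.40 with overlap on its brightest probe set (adjusted p = 0.593). All 4 Dcx probe sets had lower means at 18 months. Those with differences of -0.19 and -0.25 did not overlap, and both lay below the array medians.

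No identity gene of striatal neurons was called in either direction. Penk, the enkephalin precursor of the indirect pathway, measured 11.58, 11.70 and 11.81 at 3 months and 11.69, 11.59 and 11.60 at 18 months, a difference of -0.07 ± 0.11 (SE; adjusted p = 0.837). The gene of the phosphatase inhibitor DARPP-32, Ppp1r1b, differed by 0.06 ± 0.21, the dopamine receptor genes Drd1 by 0.13 ± 0.23 and Drd2 by -0.42 ± 0.25, and Htt by -0.01 ± 0.10. The arrays of both ages overlapped in each. Of the 30 projection neuron genes 23 had a lower mean and 6 lay apart below, beside 9587 of 18193 and 8.81% of all genes, with a median of -0.09, which was -0.20 without mouse wt_3m_436 and -0.04 without mouse wt_3m_467. Scn4b, a sodium channel beta subunit enriched in these neurons, was the member with the largest difference: it measured 11.42, 11.73 and 11.88 at 3 months and 11.31, 11.11 and 11.25 at 18 months (difference -0.45 ± 0.24; adjusted p = 0.526).

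Lists of basic cell machinery had medians near 0 and no calls other than Nfe2l2. The median was 0.02 over 34 respiratory chain and ATP synthase genes, with differences from -0.13 to 0.22, and 0.03 over 18 cholesterol biosynthesis genes. Presynaptic vesicle, glutamate receptor, and heat shock and chaperone genes had medians of 0.00, -0.03 and -0.02. Of 16 antioxidant genes Nfe2l2 alone was called. In this list 4 genes lay apart above and 0 below, beside 9.76% and 8.81% of all genes, and its mean level was higher in every old mouse. Gpx4 and Slc7a11 lay apart above by 0.31 and 0.46, while Nqo1, Hmox1 and Gclc differed by 0.10, -0.13 and -0.06. The activity of NRF2 was not tested. Senescence and p53 target genes had a median of -0.02, and none was called.

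Immediate early genes had a median of 0.01, and 5 of 21 lay apart below, beside 8.81% of all genes. The median had no settled sign: it was 0.16 without mouse wt_3m_436, -0.16 without mouse wt_3m_438 and -0.16 without mouse wt_18m_9. Egr2 measured 6.61, 5.04 and 5.76 at 3 months and 5.04, 4.81 and 4.75 at 18 months (difference -0.94 ± 0.32, SE; adjusted p = 0.349), with mouse wt_3m_436 highest.

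Tissue next to the striatum differed between mice more than between ages. All 13 choroid plexus genes had a higher mean at 18 months, yet only Sostdc1 lay apart. Ttr, the transthyretin gene of this epithelium, measured 10.76, 10.79 and 9.82 at 3 months and 10.72, 13.76 and 8.63 at 18 months. Mouse wt_18m_12 exceeded every young mouse in 13 of 13 of these genes, mouse wt_18m_9 in 2 and mouse wt_18m_17 in 1, and the median of 0.62 became -0.17 without mouse wt_18m_12. Mouse wt_18m_12 likewise exceeded every young mouse in 12 of 13 ependymal cilia genes, and mice wt_18m_9 and wt_18m_17 in 2. With the mean of the choroid plexus list as a covariate 9 probe sets were called higher; Cfap54 was among them and Cd52 and Gfap were not. All 13 called genes stayed higher in that fit, by 0.66 to 2.33, and the 9 that lost their call had adjusted p-values of 0.0520 to 0.0702. Thalamic and pallidal genes had a median of 0.14 (0.04 to 0.53 without 1 mouse), and their mean level ranged from -0.67 in mouse wt_3m_467 to 0.55 in mouse wt_18m_17 without separating the ages.

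The Q92 mice share no array with the wild-type comparison. Mice Q92_18m_25 and Q92_18m_66 were younger in days than every old wild-type mouse, and sex was balanced between the Q92 ages, unlike in wild type. Choroid plexus genes were uneven among the Q92 mice. Their mean level was 2.35, -0.36 and -0.07 in Q92_3m_439, Q92_3m_440 and Q92_3m_466. In Q92_18m_11, Q92_18m_25 and Q92_18m_66 it was -0.25, 0.74 and 0.16. The part of this tissue in the Q92 age differences was not tested. Of the 23 probe sets called in wild type, 22 were higher in old than in young Q92 mice, where 48.1% of all probe sets were. In 13 of the 23 the Q92 arrays did not overlap, beside 7.83% of all probe sets, and 1, paired with C4a and C4b, was called. The difference was smaller in Q92 than in wild type for all 23, with a median of 0.23 against 0.88; the wild-type values had chosen the probe sets, so the smaller size is a description only. Gfap differed by 1.03 ± 0.26 in Q92 (SE; adjusted p = 0.160) and Cd52 by 1.33 ± 0.29 (adjusted p = 0.112), both without overlap.

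Lists seen in wild type were seen in Q92 mice to differing extents. All 23 interferon-stimulated genes had a higher mean in old Q92 mice, 8 of them without overlap (10% of all genes lay apart in this direction), with a median of 0.57. The old Q92 mice differed widely: the list level was -0.14 in Q92_18m_11, -0.55 in Q92_18m_25 and 0.71 in Q92_18m_66. In the young mice Q92_3m_439, Q92_3m_440 and Q92_3m_466 it was -0.56, -0.64 and -0.64, so mouse Q92_18m_25 lay near the young level. The MHC class I and lysosomal medians were 0.37 and 0.17. The medians of homeostatic microglia and of oligodendrocyte and myelin genes were -0.05 and -0.12 in Q92 mice, against 0.30 and 0.22 in wild type; the difference between genotypes was tested for single probe sets only.

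No probe set passed the test for an age difference that changed with genotype (0 of 45037, 0%, in limma; 2335, or 5.18%, at an unadjusted p under 0.05). The smallest p-values belonged to Clspn, Penk and Sdr39u1 (adjusted p = 0.0598), which differed by -0.12, -0.07 and -0.23 with age in wild type and by -1.56, -1.30 and -2.17 in Q92 mice. Further down, among genes taken by their brightest probe set, came Ryr1, the skeletal muscle-type ryanodine receptor gene, with -0.24 against -2.09, the gene of the activin-binding protein follistatin, Fst, with 0.42 against -1.23, and Cfap54 with 1.97 against -0.09 (each adjusted p = 0.300). In the Q92 mice, 19 probe sets were called higher with age (0.0422%) and 74 lower (0.164%). Of these 74, 61 were also lower in old wild-type mice, where 57.2% of all probe sets were, and 21 lay apart below there. Their median was -0.15 in wild type against -0.97 in Q92. The Q92 values had chosen these probe sets, so the smaller size in wild type is a description only.

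**Figure D5:**
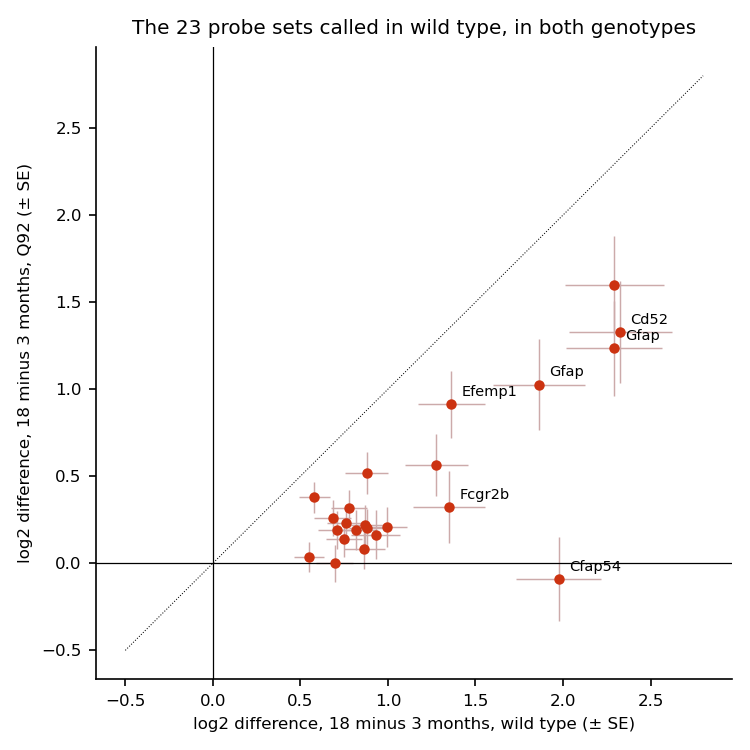
Log2 difference, 18 minus 3 months, in Q92 mice against that in wild-type mice for the 23 probe sets called in wild type, with standard errors as bars and the line of equal size dotted. All 23 points lie below the line, 22 of them above 0, and Cfap54 lies at 1.97 in wild type and -0.09 in Q92 mice.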

How the data were processed

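The 12 arrays, 1 per mouse, were grouped by the genotype and age in the labels into 4 groups of 3. The authors deposited log2 signals; the submitters' processing notes name RMA and affy, with no version. Joint normalisation of the 12 arrays is not stated in the sources at hand. RMA makes each difference relative to the other genes of an array. Control probe sets (64) did not enter any fit. Of 45037 probe sets the platform annotation pairs 34945 with 1 gene, 932 with several and 9160 with none; each gene is represented by its brightest probe set (18193 genes).

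A linear model with 4 group means was fitted across the 12 arrays with limma 3.58.1 in R 4.3.3, giving 8 residual and 4.5 prior degrees of freedom, and p-values were adjusted over all probe sets (Benjamini-Hochberg, 0.05). SE is that of the moderated fit, and its median for a difference was 0.122. Arrays give no read depth, and 3 mice per age limit the precision. On data simulated for this comparison over 45037 probe sets, the fit called 42% of 50 probe sets changed by 0.5, 82% of those changed by 1 and 98% of those changed by 2. It also called 9 of 44837 unchanged probe sets. The simulation gave a probe set the same spread in all groups. Genes such as Oasl2, with an SD of 0.19 at 3 months and 1.66 at 18 months, are not covered by these shares.

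The comparison and the 40 gene lists (731 genes, 669 measured) were chosen with earlier results of these data known. The rule for named genes took up to 20 called genes per direction that were apart in all arrays, called list members, the 2 largest differences of lists without a call, 11 genes of prior interest and, where fewer than 5 were called, the 5 with the smallest p. A gene was apart when all 3 arrays of one age lay above all 3 of the other. Alternatives were quantile normalisation, a common median, a filter at the 40th percentile, a robust prior together with a trend in intensity, array weights, sex or choroid plexus genes as covariates, sex-specific means, wild-type arrays alone, other summaries per gene, and leaving out each mouse. The counts of genes at least 2-fold higher or lower were added to these after seeing the data.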

Additional observations from a re-analysis of the deposited data

How the results depend on the processing

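The 23 probe sets called higher became 7 under quantile normalisation, 39 with array weights, 0 with sex as a covariate, 1 for the mean of the male and the female difference, 7 from the 6 wild-type arrays alone, 15 with the mean of the probe sets of a gene, 9 with choroid plexus genes as a covariate, 0 without both wild-type arrays of lowest correlation (mice wt_3m_467 and wt_18m_12), and 0 to 23 without 1 mouse. The 0 called lower became 1 with an intensity trend and a robust prior, with array weights and with the mean of both sexes, and 0 to 7 without 1 mouse (7 without mouse wt_18m_17). The 0 called for a change with genotype became 3 with an intensity trend and a robust prior, 2 with array weights, 1 with the mean of both sexes, 3 with 1 probe set per gene, 2 with the mean of the probe sets and 0 to 2 without 1 mouse. The 73 genes at least 2-fold higher became 47 with the mean of the probe sets and 48 to 103 without 1 mouse; the 4 lower became 1 with the mean of the probe sets, 32 without both arrays of lowest correlation, and 5 to 17 without 1 mouse (17 without mouse wt_3m_467). Fewer arrays or genes were tested in several of these; otherwise the cause was not tested. No result changed direction among those called, and the 13 called genes stayed higher in each alternative run that held them. The filter at the 40th percentile left out Irak3. The arrays of both ages were apart for these genes, so runs that only left out arrays could not reverse the sign. The median of all probe sets was -0.03 as deposited and -0.01 under both other scalings, so list medians within about that distance of 0 have no settled sign. No paired analysis was possible because the animal numbers of the labels are not shared between groups.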

Other observations

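Cyclin D2 gave a matching value in both genotypes, which was noticed after the values were seen. On a Ccnd2 probe set that was not the brightest of its gene, the 3-month wild-type mice measured 8.76, 8.74 and 8.92 and the 18-month mice 7.90, 7.91 and 8.18. The difference was -0.81 ± 0.13 (SE; limma adjusted p = 0.0661), and in Q92 mice it was -0.86 (adjusted p = 0.0313). Abca8a, a lipid transporter of oligodendrocytes, likewise differed by 1.03 in wild type (adjusted p = 0.158) and by 0.92 in Q92 mice (adjusted p = 0.123), without overlap between the wild-type ages. Among clustered protocadherins, Pcdhb8 differed by 0.79 and Pcdhb5 by -0.51 in wild type, both apart in all arrays, so neighbouring genes of the cluster lay on opposite sides (adjusted p = 0.145 and 0.242).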
